A study of Homo sapiens with 18 samples.

Results

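The IGF and insulin axis genes are 10 genes for the 2 insulin-like growth factors, the serum proteins that carry them, the receptors for the growth factors and insulin, and the first adaptors inside the cell: IGF1, IGF2, IGFALS, IGFBP1, IGFBP2, IGFBP3, IGF1R, INSR, IRS1 and IRS2. They were chosen by gene symbol, each by the array feature (a probe set for 1 transcript cluster) annotated to that gene alone, the one with the highest mean over the 18 arrays where a gene had several. A single-gene feature was found for 9 of the 10 members, among 18404 genes with such a feature. IGF2 shared its feature with 2 other annotated genes, and that feature is given apart.

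RNA came from HepG2, an established human hepatocellular carcinoma line, and was measured on 18 Affymetrix Human Gene ST arrays. There were 3 pools of stable, G418-selected transformants: 6 pooled clones with thyroid hormone receptor TRα1 (TRa1 in the labels), 12 pooled clones with TRβ1 (TRb1) and 11 pooled clones with the empty plasmid (control). The medium held 10% serum stripped of hormones, and every pool received either the ethanol carrier (vehicle) or 100 nM T3, the active thyroid hormone, during 6 h. This gave 6 groups of 3 independent biological repeats, numbered 1 to 3. All pools carried the endogenous receptors of HepG2, and each construct was represented by 1 pool, so the introduced receptor and the clones of a pool cannot be told apart. P-values measure the spread between the repeats of these pools. The series title asks which targets the 2 receptors share and where they act differently.

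In the liver, growth hormone drives the secretion of IGF1, which circulates with IGFBP3 and the acid-labile subunit encoded by IGFALS. IGFBP1 is a short-lived carrier whose gene is repressed by insulin through AKT and FOXO1, and IGFBP2 is another carrier that hepatocytes secrete. IGF1R and INSR are related receptor tyrosine kinases that signal through IRS1 and IRS2 to PI3K and AKT. Thyroid hormone receptors bind DNA next to target genes, often at paired AGGTCA half-sites, and T3 switches the cofactors they hold.

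The sequences just before the annotated starts of IGFBP2 and IRS1 are shown because these members differed between the pools. They are 250 bases each from RefSeq on GRCh38.p14, written 5′ to 3′ on the strand of the gene, with a half-site in capitals. The IGFBP2 window lies at chr2:216632578-216632827 on the plus strand, upstream of the first of 3 listed starts. The IRS1 window lies at chr2:226799821-226800070 on the minus strand.
IGFBP2: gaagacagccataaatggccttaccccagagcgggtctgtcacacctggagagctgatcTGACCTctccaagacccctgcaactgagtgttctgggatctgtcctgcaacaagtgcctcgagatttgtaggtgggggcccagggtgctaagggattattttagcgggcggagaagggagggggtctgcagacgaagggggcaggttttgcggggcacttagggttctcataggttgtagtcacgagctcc
IRS1: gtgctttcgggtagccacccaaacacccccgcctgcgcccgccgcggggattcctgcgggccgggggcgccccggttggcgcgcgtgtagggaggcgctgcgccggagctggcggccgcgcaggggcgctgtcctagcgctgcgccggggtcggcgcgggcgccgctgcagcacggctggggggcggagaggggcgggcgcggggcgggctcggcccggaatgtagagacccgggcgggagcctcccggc
The IGFBP2 window held 1 AGGTCA half-site, read on the opposite strand, and the IRS1 window held none on either strand. The windows before the other 2 listed starts of IGFBP2, not shown, held 0 half-sites. Among 35116 windows of the same length, 12.1% held a half-site on either strand. A direct repeat with 4 bases between the half-sites, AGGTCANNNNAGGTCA, was in 0.0142% of the windows and in none of the members' windows. RefSeq windows were matched for 8 of 10 members, all but IGFBP1 and IGF2. The forkhead motif GTAAACA, in 2.98% of all windows, was found before 1 start of IGF1 and in no other window of a matched member. A match is a description of letters, not a bound site.

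Values are log2 expression after RMA, a normalization of all arrays together, so a difference of 1 is a doubling. Levels of different genes are not on a common scale. Array medians lay between 5.31 and 5.49, and precision is limited by 3 arrays per group. Arrays with the same repeat number resembled each other: the first principal component held 49.2% of the variance and separated the 6 arrays numbered 1 from the rest. THRA, the gene for TRα, was higher in the TRα1 pool than in the control pool by 0.69 ± 0.10 (SE; both treatments; limma adjusted p = 0.0014). Its vehicle and T3 means were 7.50 and 7.96 in the TRα1 pool and 7.06 and 7.01 in the control pool. THRB, the gene for TRβ, was higher in the TRβ1 pool than in the control pool by 0.33. That difference passed only with the repeat number as a block (limma adjusted p = 0.037). THRB was also higher on T3 in every pool, with vehicle and T3 means of 6.65 and 7.07 (control), 6.74 and 7.19 (TRα1), and 6.95 and 7.42 (TRβ1). The 9 hepatocyte markers measured had means between 10.7 and 12.7, and their mean per array stayed between 11.8 and 12.1. The 10 markers of blood, endothelial, stromal, bile duct and Kupffer cells had a mean per array between 5.49 and 5.83. Among those, ACTA2 (9.27) and CD68 (8.50) were the brightest and PTPRC, which white blood cells express, the dimmest at 2.46.

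Of the ligands and carriers, IGF1 gave the lowest signal. Its 18 values lay between 2.98 and 3.52, and its mean ranked above 9.47% of features, which is no order of abundance. IGFBP3 lay between 5.27 and 5.75, and IGFALS between 5.91 and 6.51. IGFBP1 lay between 7.53 and 8.99 and IGFBP2 between 6.51 and 8.12, the widest ranges of the 9 members. For the receptors, IGF1R lay between 7.36 and 8.49 and INSR between 7.06 and 7.97. For the adaptors, IRS1 lay between 6.81 and 7.50 and IRS2 between 4.95 and 5.97.

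**Figure D1:**
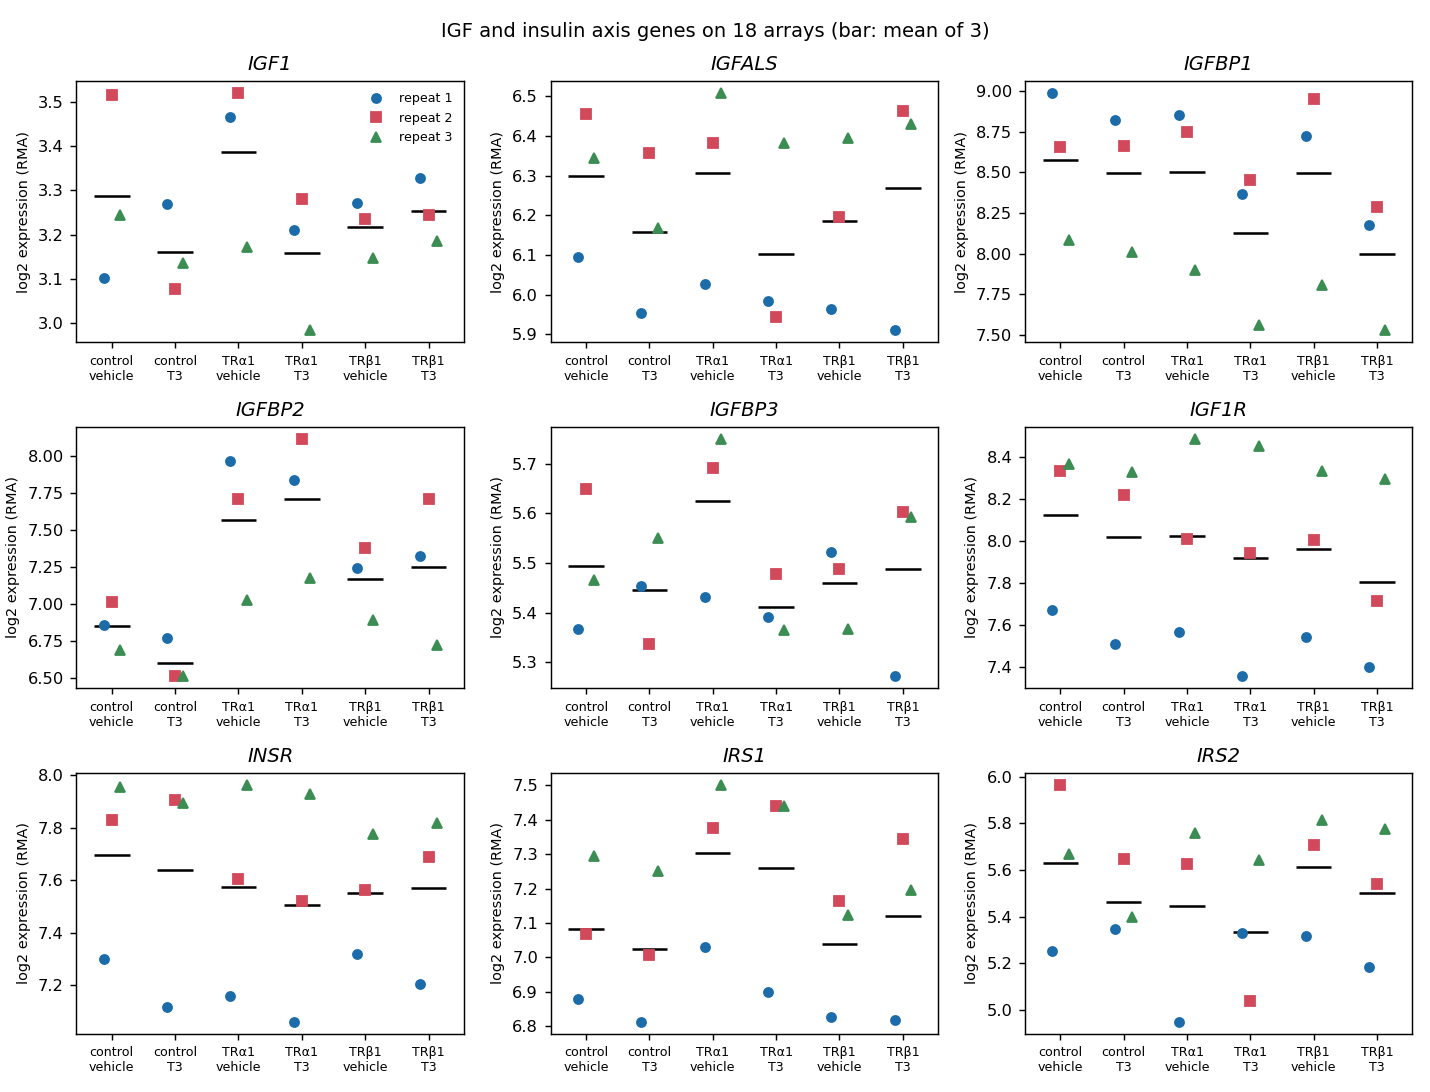
Log2 expression (RMA) of the 9 axis genes on each of the 18 arrays, by pool and treatment, with 1 symbol per repeat number and a bar at the mean of 3. IGFBP1 was lower on T3 than on vehicle in all 6 same-numbered pairs of the receptor pools, with repeat 3 lowest in every group, and all 6 TRα1 values of IGFBP2 lay above the 6 control values.

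IGFBP1 had the largest T3 response of the 9 members in each receptor pool and in the mean of the 3 pools, but not in the control pool. On vehicle the TRβ1 pool had IGFBP1 values of 8.73, 8.95 and 7.81 in repeats 1, 2 and 3, and on T3 it had 8.17, 8.28 and 7.53. The TRα1 pool had 8.85, 8.75 and 7.90 on vehicle and 8.37, 8.45 and 7.56 on T3. The control pool had 8.99, 8.65 and 8.08 on vehicle and 8.82, 8.66 and 8.01 on T3. Repeat 3 was lowest in every group, and the vehicle and T3 values overlapped in each pool. The T3 array was below its vehicle array in all 6 same-numbered pairs of the receptor pools. The pair differences were -0.55, -0.67 and -0.28 in the TRβ1 pool, -0.48, -0.30 and -0.34 in the TRα1 pool, and -0.17, 0.01 and -0.07 in the control pool.

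The mean response of IGFBP1 over the 3 pools was -0.32, or 0.803 of the vehicle level, with 8 of 9 pairs below 0. Without the repeat number in the fit, its SE was 0.21 and it did not pass (limma adjusted p = 1.0). With the repeat number as a block, the SE was 0.06 and IGFBP1 fell (95% interval -0.44 to -0.19; limma adjusted p = 0.0089). It was then the only one of 9 members called, against 1.69% of all features with the block and 0.423% without it, where no member was called. The call held when any 1 of the 18 arrays was left out (adjusted p 0.0029 to 0.026), but not without the arrays numbered 1 or those numbered 3 (adjusted p up to 0.207). In these bulk samples, fewer cells of a type and less RNA per cell cannot be told apart. FGB was the only one of 9 hepatocyte markers called in the same fit, at 0.26, and none of the 10 markers of other cells was called. Their part in the IGFBP1 result was not tested.

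In single pools, IGFBP1 fell by 0.50 in the TRβ1 pool, 0.707 of the vehicle level, only with the block (SE 0.10; limma adjusted p = 0.045). It was 1 of 9 members called, against 0.477% of all features with the block, and 0 members against 0.073% without it. The call was lost without vehicle repeat 1 or 2 or without T3 repeat 1, 2 or 3 of that pool (adjusted p up to 0.311). Leaving out all arrays of any 1 repeat number also lost it (limma adjusted p 0.324 to 0.638). The TRα1 pool gave -0.37 (block SE 0.10; limma adjusted p = 0.194) and the control pool -0.08 (block SE 0.10; limma adjusted p = 0.954). No member was called in the TRα1 pool, against 0.131% of features without and 0.667% with the block, or in the control pool, against 0.00973% and 0.0973%. At an unadjusted p under 0.05, limma gave 0 members without and 2 with the block in the TRα1 pool, and 0 in both fits in the control pool. Of all features, 523 and 1396 had such a p in the TRα1 pool and 417 and 1222 in the control pool.

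The responses of IGFBP1 were not shown to differ between pools. The TRβ1 response minus the control response was -0.42 (block 95% interval -0.73 to -0.11; unadjusted p = 0.011 by limma, adjusted p = 1.0). The TRα1 response minus the control response was -0.29 (-0.60 to 0.02), and TRβ1 minus TRα1 was -0.13 (-0.44 to 0.18), both with a limma adjusted p of 1.0. The first 2 of these differences use the same control arrays. No member was called in these contrasts, and only IGFBP1 in TRβ1 minus control with the block had an unadjusted p under 0.05 by limma. Of all features, 0% passed in each of these 3 contrasts without the block, and 0.0292% for TRα1 minus control and 0% for the other contrasts with it. At an unadjusted p under 0.05, limma gave 286, 275 and 223 features for TRα1 minus control, TRβ1 minus control and TRβ1 minus TRα1 without the block, and 770, 835 and 619 with it.

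**Figure D2:**
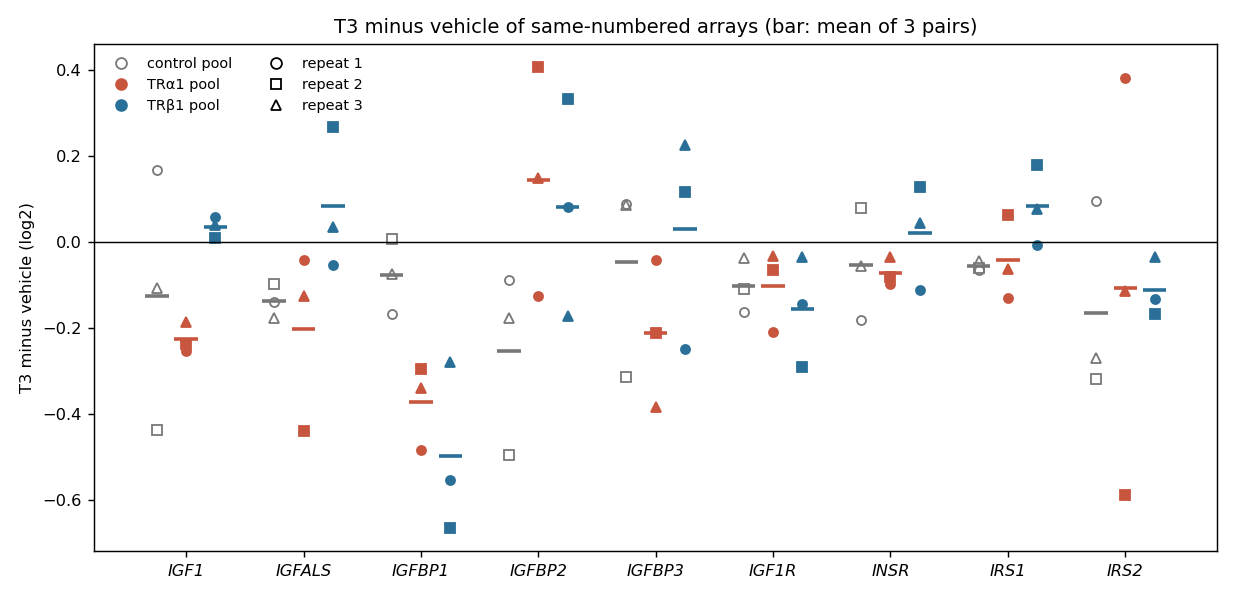
T3 minus vehicle (log2) for same-numbered arrays, per axis gene, pool and repeat, with a bar at the mean of 3 pairs. IGFBP1 was below 0 in all 6 pairs of the receptor pools. IGF1R, by its main feature, was below 0 in 9 of 9 pairs, while IGFBP2 ranged from -0.50 to 0.41.

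The other members were not called after T3 in any pool. IGF1R, the receptor for both growth factors, was lower on T3 in 9 of 9 same-numbered pairs, by 0.03 to 0.29. Its mean response was -0.12 (block 95% interval -0.25 to 0.0030; limma adjusted p = 0.499). A second feature of IGF1R gave -0.06 for the mean response. In the TRβ1 pool it gave 0.03, where the first gave -0.16, so the features did not share the direction there. The second feature was higher on T3 in repeat 2 of the TRα1 pool (6.60 to 6.90) and of the TRβ1 pool (6.80 to 6.96). It was also higher in control repeat 3 (7.44 to 7.49), and lower in the other pairs. INSR, the insulin receptor, had a mean response of -0.04 with 6 of 9 pairs below 0.

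IGF1 on vehicle stood at 3.47, 3.52 and 3.17 in the TRα1 pool and at 3.21, 3.28 and 2.98 on T3. The 3 pair differences were -0.25, -0.24 and -0.19, and the values of the treatments overlapped. Its response was -0.23 in the TRα1 pool (block SE 0.10; limma adjusted p = 0.706), 0.03 with TRβ1 and -0.13 for the control. IGFALS, which stabilises circulating IGF1, had a mean response of -0.09, and the carrier IGFBP3 one of -0.08. The adaptor IRS2 had -0.13, with single pairs from -0.59 to 0.38, the widest spread of the 9 members. IRS1 had a mean response of -0.0065 and IGFBP2 one of -0.01 (95% interval -0.21 to 0.19). In the control pool IGFBP2 had the response farthest from 0, -0.25 with 3 of 3 pairs below 0 (block SE 0.16; limma adjusted p = 0.871).

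As a list, the 9 members had a median response of -0.11 in the TRα1 pool, 0.03 with TRβ1 and -0.10 for the control. Over all features these medians were -0.02, -0.01 and -0.01. All 9 members were below 0 in the control pool, 8 of 9 in the TRα1 pool and 3 of 9 in the TRβ1 pool. The members were read from the same arrays, and the share of all features below 0 was not computed. No member had values on T3 that did not overlap those on vehicle, against 5.26% of features in the TRα1 pool, 5.04% with TRβ1 and 6.16% for the control.

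IGFBP2 was the member that differed most between pools. In repeats 1, 2 and 3 of the TRα1 pool it stood at 7.97, 7.71 and 7.03 on vehicle and at 7.84, 8.12 and 7.18 on T3. The TRβ1 pool had 7.24, 7.38 and 6.89 on vehicle and 7.32, 7.71 and 6.72 on T3. The control pool had 6.86, 7.01 and 6.69 on vehicle and 6.77, 6.52 and 6.51 on T3. All 6 TRα1 values lay above all 6 control values, a separation seen in 1.77% of features. The TRβ1 values lay between those of the other pools on average and overlapped both. Each repeat of a pool gave a vehicle and a T3 array, so these 6 values come from 3 repeats. Both fits took these 2 arrays of a repeat as separate observations of the pool. The SEs and p-values given over both treatments do not allow for this.

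Over both treatments, IGFBP2 was higher in the TRα1 pool than in the control pool by 0.91 ± 0.19 (SE; 1.88-fold; limma adjusted p = 0.025), in 6 of 6 same-numbered pairs. It was the only one of 9 members called, against 1.38% of all features. With the block the SE was 0.11 and the adjusted p 1.3e-04. Without the block, the call was lost in 9 of 12 cases of leaving out 1 array (adjusted p up to 0.079): TRα1 vehicle repeat 1 or 2, TRα1 T3 repeat 1 or 2, any control vehicle repeat, or control T3 repeat 2 or 3. With the block it held in 12 of 12 (adjusted p 9.2e-05 to 6.9e-04). Without the arrays numbered 1 or those numbered 2, the unblocked call was lost (limma adjusted p up to 0.579). The blocked call held without any 1 number (limma adjusted p 0.0012 to 0.014).

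On vehicle alone the difference of IGFBP2 was 0.72 ± 0.27, with pairs of 1.11, 0.70 and 0.34 and no overlap between the groups, which 7.67% of features also showed. It passed with the block (SE 0.16; limma adjusted p = 0.031), as 1 of 9 members against 2.07% of features, and not without it (adjusted p = 0.788), where 0 members and 0.307% of features were called. The blocked call was lost without vehicle repeat 1 or 2 of either pool (adjusted p up to 0.145). Leaving out any 1 number also lost it (limma adjusted p 0.067 to 0.324). In the TRβ1 pool, IGFBP2 exceeded the control pool by 0.48 ± 0.19 over both treatments, in 6 of 6 pairs (limma adjusted p = 0.678 without and 0.028 with the block). That blocked call was lost when 1 of 6 arrays was left out: TRβ1 vehicle repeat 2 or 3, TRβ1 T3 repeat 2, control vehicle repeat 1 or 2, or control T3 repeat 2 (adjusted p up to 0.091). Leaving out any 1 number lost that call too (limma adjusted p 0.056 to 0.338). TRβ1 minus TRα1 was -0.43 (block SE 0.11; limma adjusted p = 0.072), and passed in the blocked fit without TRβ1 T3 repeat 2 (adjusted p = 0.039) and under 4 other settings (0.032 to 0.048).

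IRS1, the adaptor of both receptors, was the other member higher in the TRα1 pool. Its TRα1 values were 7.03, 7.38 and 7.50 on vehicle and 6.90, 7.44 and 7.44 on T3. Its TRβ1 values were 6.83, 7.16 and 7.12 on vehicle and 6.82, 7.34 and 7.20 on T3. Its control values were 6.88, 7.07 and 7.30 on vehicle and 6.81, 7.01 and 7.25 on T3. The groups overlapped, because repeat 1 was lowest in each, but TRα1 was above control in 6 of 6 same-numbered pairs. The difference was 0.23 ± 0.13 without the block (limma adjusted p = 0.756), and with it the SE was 0.06 and the adjusted p 0.033. That call was lost without any TRα1 vehicle repeat, TRα1 T3 repeat 2 or 3, control vehicle repeat 2 or control T3 repeat 2 (adjusted p up to 0.102). Leaving out any 1 number also lost it (limma adjusted p 0.082 to 0.293). TRβ1 minus control was 0.03 for IRS1, and TRβ1 minus TRα1 was -0.20 (block SE 0.06; limma adjusted p = 0.124; 0.020 with array weights).

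IGFBP1 was lower in the TRβ1 pool than in the control pool by 0.29 over both treatments (0.817-fold), in 5 of 6 pairs. It passed with the block (SE 0.07; limma adjusted p = 0.038) and not without it (SE 0.25; adjusted p = 1.0). On vehicle alone this difference was -0.08, and -0.50 on T3. The blocked call was lost without TRβ1 vehicle repeat 1 or 3, any TRβ1 T3 repeat, or repeat 1 or 3 of either control group (adjusted p up to 0.108). Leaving out number 1 or number 3 also lost it (limma adjusted p up to 0.325). TRα1 minus control was -0.22 for IGFBP1 (block SE 0.07; limma adjusted p = 0.080). It passed in the blocked fit with only features above the median level (adjusted p = 0.035), with array weights (0.036), with a trended variance (0.045) and without control vehicle repeat 2 (0.031).

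With the block, 2 of 9 members (IGFBP2 and IRS1) were called between the TRα1 and control pools over both treatments, against 7.54% of all features, and 2 of 9 (IGFBP2 and IGFBP1) between the TRβ1 and control pools, against 3.61%. Without it, 0 were called for TRβ1 minus control, against 0.38%, and 1 member, beside 1227 features, had an unadjusted p under 0.05. No member lay apart from control in the TRβ1 pool over both treatments, against 1.06% of features. For TRβ1 minus TRα1, 0 members were called in either fit, against 0.35% of features without and 2.2% with the block, and 1 and 2 members, beside 921 and 2441 features, had an unadjusted p under 0.05 by limma. On vehicle, 0 members were called for TRβ1 minus control, against 0.117% and 0.735% of features, and 0 for TRβ1 minus TRα1, against 0% and 0.54%. The unadjusted counts of members were 0 in both fits for the first and 0 and 2 for the other, where 593 and 1584 of all features had such a p. The median of the 9 members was -0.02 for TRα1 minus control and 0.0039 for TRβ1 minus control, beside 0.0015 over all features in the first and -4.9e-05 in the other.

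**Figure D3:**
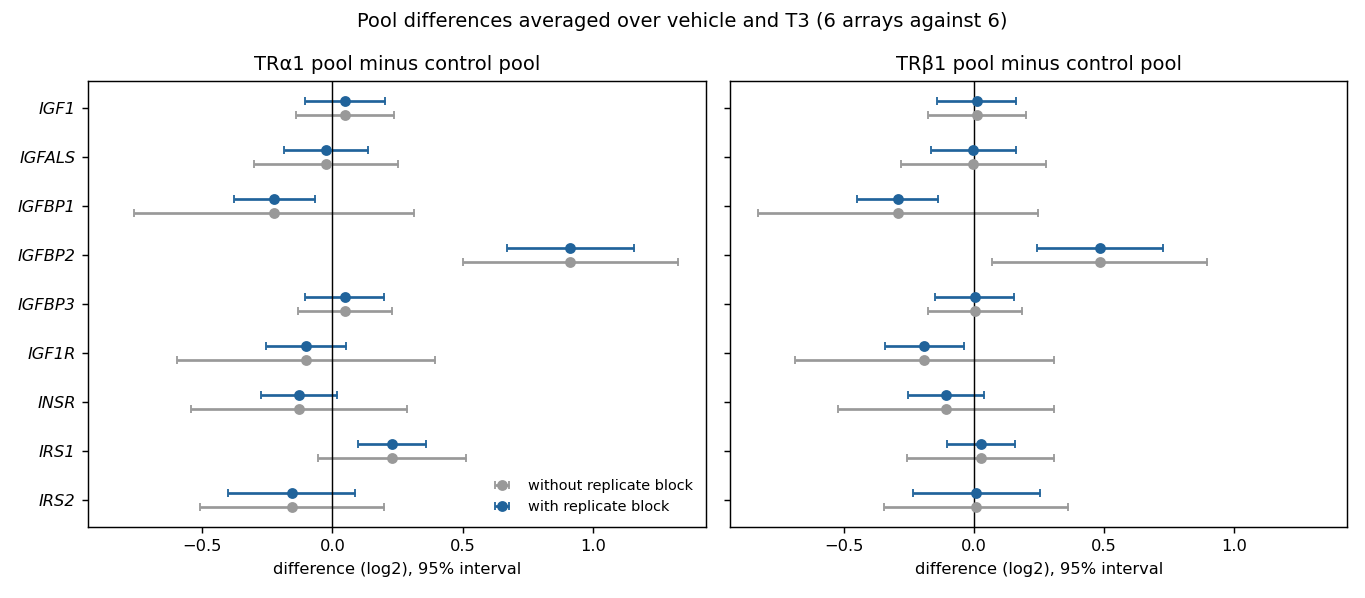
Difference between a receptor pool and the control pool for each axis gene, averaged over vehicle and T3 (log2, with the 95% interval), from the fits without and with the repeat number as a block. IGFBP2 was higher by 0.91 in the TRα1 pool and by 0.48 in the TRβ1 pool, and the block narrowed the intervals of IGFBP1, IGF1R and INSR most.

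The other members did not pass between pools. IGF1R was lower in the TRβ1 pool than in the control pool in 6 of 6 pairs, by 0.19 on average (block SE 0.07; limma adjusted p = 0.180). In the TRα1 pool its main feature differed from control by -0.10, but its second feature by -0.41 (block SE 0.10; limma adjusted p = 0.023; 0.502 without the block). That feature, singled out after its values were seen, had TRα1 values from 6.29 to 7.38 and control values from 6.85 to 7.49. INSR differed by -0.13 and -0.11 in the TRα1 and TRβ1 pools, IRS2 by -0.16 and 0.01, IGF1 by 0.05 and 0.01, IGFBP3 by 0.05 and 0.0039, and IGFALS by -0.02 and -0.0021.

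The pools also differed in markers of the cells. Over both treatments, 2 of 9 hepatocyte markers were lower in the TRα1 than in the control pool without the block, TTR by 0.70 and AFP by 0.31, and with the block ALB (-0.21) and APOA1 (0.32) also passed. Of all features, 1.38% were called in that contrast without and 7.54% with the block. The mean of the 9 markers on single vehicle arrays was 11.81 to 11.96 for the TRα1 pool and 11.83 to 11.97 for the control pool. Among the 10 markers of other cells, ACTA2 passed with the block at 0.24 in the TRα1 pool, against 7.54% of all features. CD68 passed with the block at -0.25 in the TRβ1 pool, against 3.61%. The mean of these 10 markers on vehicle was 5.55 to 5.83 in the TRα1 pool, 5.51 to 5.73 in the TRβ1 pool and 5.60 to 5.83 in the control pool. Their part in the differences of IGFBP2, IRS1 and IGFBP1 was not tested.

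The feature that covers IGF2, together with INS and the read-through INS-IGF2, was outside the rule and was singled out after its values were seen. Its signal cannot be assigned to 1 of these genes. It stood at 7.30, 7.40 and 7.46 in the control pool on vehicle and at 7.33, 7.25 and 7.31 on T3. In the TRα1 pool it stood at 7.70, 7.999 and 7.89 on vehicle and 7.67, 7.84 and 7.86 on T3. In the TRβ1 pool it stood at 7.60, 7.88 and 7.73 on vehicle and 7.70, 7.93 and 7.79 on T3. All 12 values of the receptor pools exceeded all 6 of the control pool. Such a separation from control, in either direction, was seen for 1.77% of features with TRα1 and 1.06% with TRβ1. Over both treatments, the IGF2 feature was higher than control by 0.48 ± 0.08 with TRα1 (limma adjusted p = 0.0025). With TRβ1 it was higher by 0.43 ± 0.08 (limma adjusted p = 0.015). Without the block, as here, 1.38% and 0.38% of all features were called for these 2 differences. The T3 responses of this feature were between -0.09 and 0.07.

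The repeat number moved several members more than T3 or the pools did. IGF1R averaged 7.51 on the 6 arrays numbered 1, 8.04 on those numbered 2 and 8.38 on those numbered 3. INSR averaged 7.19, 7.69 and 7.89 on the same arrays. Both receptors were thus lowest on the arrays numbered 1, as were the adaptors IRS1 (6.88, 7.23 and 7.30) and IRS2 (5.23, 5.59 and 5.68). The carriers IGFBP1 (8.66, 8.63 and 7.81) and IGFBP2 (7.33, 7.41 and 6.84) were instead lowest on the arrays numbered 3. What the number stands for beyond a biological repeat is not given in the labels.

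**Figure D4:**
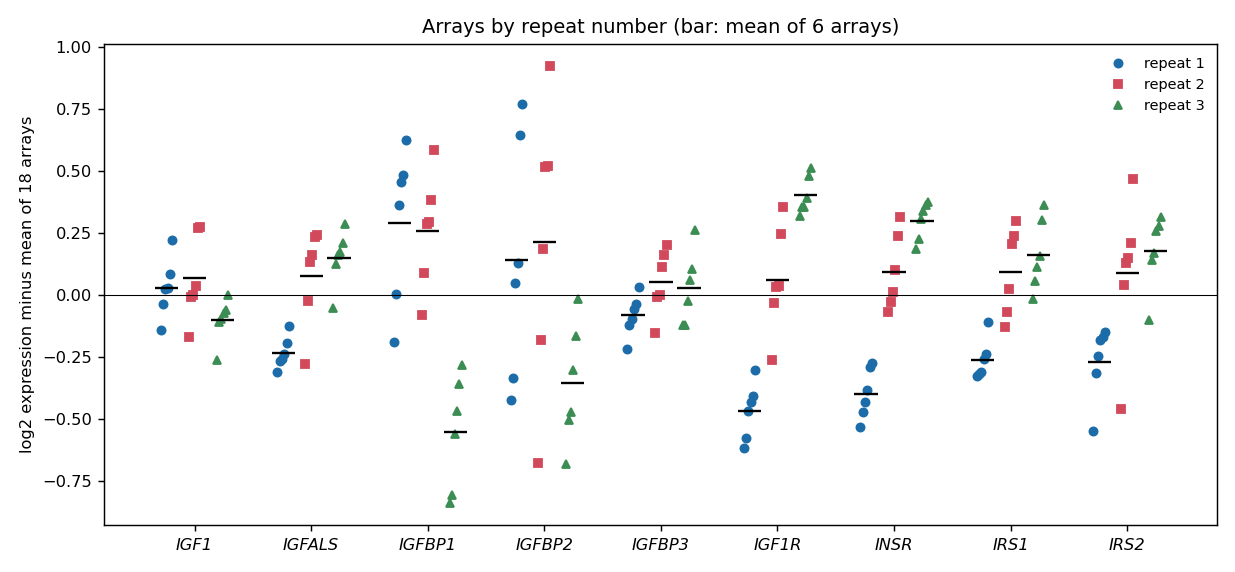
Log2 expression of each axis gene minus its mean over 18 arrays, by repeat number, with 1 point per array and a bar at the mean of 6. The means of IGF1R and INSR were lowest on arrays numbered 1, and those of IGFBP1 and IGFBP2 lowest on arrays numbered 3.

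The genes whose pattern was most like a member were ranked by Pearson's r over the 18 arrays after the mean of each repeat number was subtracted, as a description over arrays that share pools and treatments. For IGFBP1 they were PALMD (0.913), SCN9A (0.904), ARID5B (0.894), TCP11L2 (0.873) and EPS8 (0.871). For IGFBP2 they were CLTRN (0.927), CHN1 (0.921), FGF2 (0.919), PLS3 (0.914) and WDR91 (0.912). IRS1 was most like STRADA (0.884) and OXCT1 (0.882), IGF1R most like NFAT5 (0.922) and EHHADH (0.913), and INSR most like MED12 (0.868). None of the 9 members was among the 5 genes most like another member.

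Around the members, 61 further genes of the pathway were measured in 7 lists. For the mean T3 response, 2 rose without the block, against 0.423% of all features called. With the block 2 rose and 1 fell, against 1.69%. The median of the 61 genes was 0.0022 beside -0.01 over all features. Those that rose were PCK1 and G6PC1, which encode the key enzymes of glucose production and are repressed by insulin, as IGFBP1 is. They were in a list of 8 FOXO factors and insulin-repressed liver genes. PCK1 stood at 5.29, 5.65 and 5.26 in the TRβ1 pool on vehicle and at 7.37, 7.47 and 6.23 on T3, with no overlap. It rose by 1.63 ± 0.28 there (limma adjusted p = 0.042), by 1.02 in the TRα1 pool with the block (adjusted p = 0.014), and gave 0.08 in the control pool. G6PC1 stood at 4.79, 5.14 and 4.80 in the TRα1 pool on vehicle and at 6.03, 6.75 and 6.02 on T3. It rose by 1.35 in that pool and by 0.90 in the TRβ1 pool, both with the block (limma adjusted p = 5.6e-04 and 0.022), and gave 0.36 in the control pool. In both receptor pools the T3 difference of IGFBP1 was below 0 and those of PCK1 and G6PC1 were above 0.

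In the same list, PPARGC1A, a coactivator of glucose production genes, fell with the block by 0.22 over the 3 pools (limma adjusted p = 0.022; 1.0 without it). FOXO1, the transcription factor that insulin signalling inactivates, had a mean response of 0.07, and CREB3L3 one of -0.15. None of the 6 insulin-induced genes passed, with FASN and SCD, enzymes of fatty acid synthesis and desaturation, both at 0.04. None of 8 other binding proteins and modifiers, 5 receptors and ligands, 13 adaptors and inhibitors, 16 genes of the PI3K, AKT and mTOR arm, and 5 genes between growth hormone and IGF1 passed either. Their brightest members, named by level and not by response, gave 0.07 for IGFBP4, 0.12 for STC2, -0.0034 for the receptor IGF2R and 0.03 for IGF2BP1. The values were -0.05 for ENPP1, -0.01 for GRB2, -0.17 for PDPK1, -0.03 for AKT1, 0.13 for STAT5B and -0.01 for CISH. GRB10, of the adaptor list, was singled out after its values were seen and moved more, but was not called. Its vehicle and T3 means were 6.50 and 6.99 with TRα1, 6.28 and 6.62 with TRβ1, and 6.36 and 6.48 for the control.

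**Figure D5:**
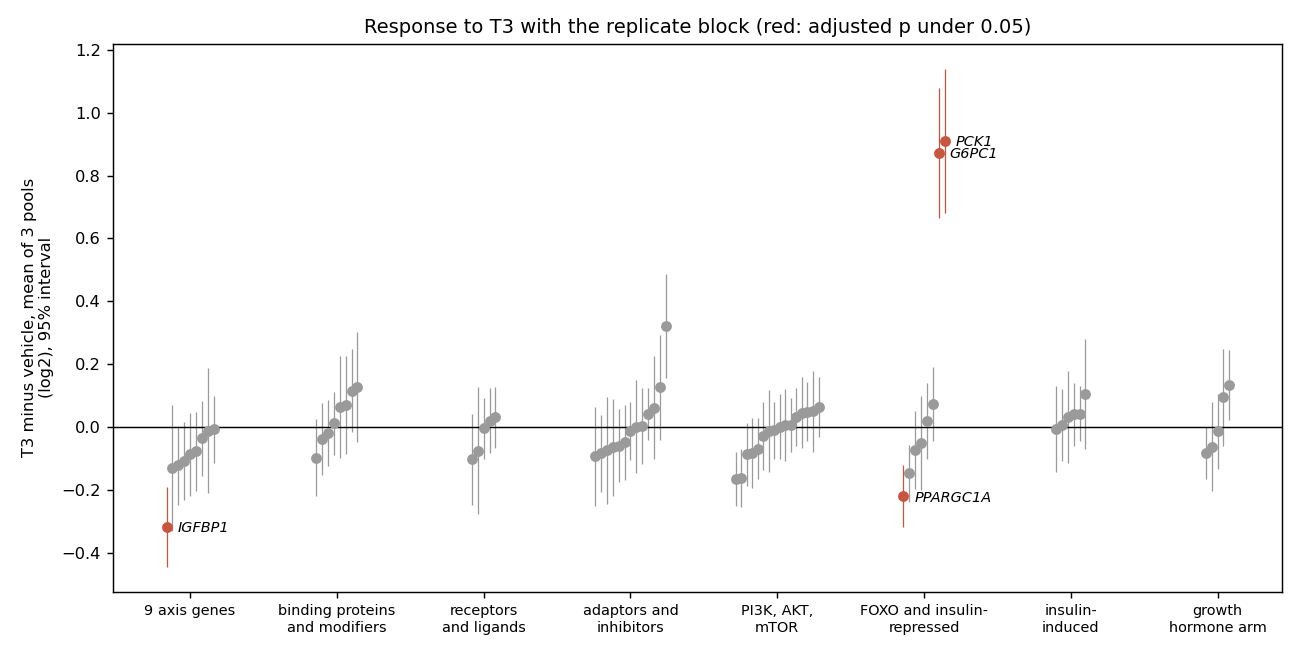
Mean response to T3 over the 3 pools (log2, with the 95% interval and the repeat number as a block) for the 9 axis genes and 61 genes in 7 lists, each ordered by its response, with an adjusted p under 0.05 in red. PCK1 (0.91) and G6PC1 (0.87) rose, and IGFBP1 (-0.32) and PPARGC1A (-0.22) fell.

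Between the TRα1 and control pools over both treatments, 6 of the 61 genes were higher and 3 lower with the block, against 7.54% of all features called, and 0 passed without it, against 1.38%. The lower genes were ENPP1, an inhibitor of the insulin receptor, at -0.52 (limma adjusted p = 2.1e-04), MTOR at -0.40 and PIK3CB at -0.25. The higher genes were PCK1 (0.46), PNPLA3 (0.33), PIK3R1, a regulatory subunit of PI3K (0.28), PAPPA, a protease that cleaves IGF binding proteins (0.26), AKT1 (0.22) and PPARGC1A (0.21). Between the TRβ1 and control pools, 3 were higher and 2 lower with the block, against 3.61% of all features: PCK1 (0.81), TRIB3 (0.38) and PIK3R3 (0.23), and MTOR (-0.43) and PDPK1 (-0.23). For PCK1 these differences lay in the T3 arrays. Its vehicle means were 5.35 in the TRα1, 5.40 in the TRβ1 and 5.36 in the control pool. Its T3 means were 6.37, 7.02 and 5.44. Between the receptor pools, ENPP1 was higher by 0.40 and PIK3R1 lower by 0.25 in the TRβ1 pool with the block, against 2.2% of all features called. On vehicle alone, PIK3R1 (0.34) was higher and ENPP1 (-0.47) and MTOR (-0.40) lower in the TRα1 than in the control pool, and MTOR (-0.44) was lower in the TRβ1 pool. These calls needed the block, with which 2.07% and 0.735% of all features were called for the TRα1 and TRβ1 pools.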

How the data were processed

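The deposited values are log2 expression per feature, which the authors normalized with RMA. The submitters' processing notes name R 2.7.1. From each sample 200 ng of total RNA was labelled, per the labels' protocols. The genome build of the array annotation is not given in the sources used here. Of 32321 features, 20546 had a gene symbol (19158 with 1 gene, 1388 with several) and were tested, and 11775 had none.

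Differences were fitted with limma 3.58.1 in R 4.3.3 over all 6 groups, with 13 contrasts, two-sided p-values and Benjamini-Hochberg adjustment over all features tested within a contrast. A call is an adjusted p under 0.05. The procedure was tested on simulated data. The labels give each group repeats 1 to 3. After group means were removed, all 45 same-numbered pairs of arrays from different groups correlated above 0.1 (lowest 0.259, median 0.597). Of 90 differently numbered pairs, 28 also did (highest 0.455, median -0.483). On the first principal component, arrays numbered 2 (12.0 to 20.4) and 3 (14.3 to 22.6) overlapped, so this check sets apart mainly number 1. The numbers were read as pairing the arrays, and the fit with the repeat number as a block is given beside the fit without it.

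The members, the pathway and marker lists and the tests were chosen with earlier results of these data known. Members were always named, as were THRA and THRB. Of each pathway list the called genes (up to 6 per contrast) and the 2 brightest were named. Genes with no single-gene feature were not analysed here. Alternatives were leaving out each array or number, other filters, array weights, a trended variance and only the arrays compared. Their combinations with the block were chosen after seeing the data. Motifs were searched in RefSeq windows on both strands.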

Additional observations from a re-analysis of the deposited data

Results flagged for a closer look

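The T3 differences of IGF1 had opposite signs in the receptor pools, and passed in neither (limma adjusted p with the block 0.706 for TRα1 and 1.0 for TRβ1). All 3 same-numbered pairs were below 0 in the TRα1 pool (mean -0.23) and all 3 above 0 in the TRβ1 pool (mean 0.03), a difference of 0.26. limma's test of that difference did not pass in either fit (adjusted p = 1.0). The TRβ1 pairs were only 0.06, 0.0079 and 0.04. IGF1 also gave the lowest signal of the 9 members, between 2.98 and 3.52. Outside the axis genes, TTR had a mean response of -0.17 with TRα1 against 0.06 for the control, which is 0.22 apart, and of -0.07 with TRβ1, which is 0.13 from the control. PIK3CB gave -0.19 in the TRα1 and -0.08 in the TRβ1 pool against 0.02 in the control pool, differences of 0.21 and 0.10. ALB gave -0.05 with TRα1 against 0.06 for the control, 0.11 apart. Each of these had all 3 pairs of a pool on the same side of 0 and all 3 of another pool on the opposite side. None passed limma's test of the difference in either fit. They came from a screen for this pattern across the pools, over the 9 members and any list or marker gene called in a contrast. The share of all features with this pattern was not computed.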

How the results depend on the processing

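The replicate block raised the members called from 0 to 1 for T3 in the TRβ1 pool, the mean T3 response and TRα1 minus control on vehicle, from 1 to 2 for TRα1 minus control over both treatments, and from 0 to 2 for TRβ1 minus control. It changed no other count. Each called member kept its direction under every alternative run. The block, other filters, a trended variance and only the arrays compared leave a difference unchanged, so they could not change its direction. Leaving out a number could not either, as every repeat number had the called direction. With the block, adjusting over all features of the table gave 0 for T3 in the TRβ1 pool, 0 for TRα1 minus control on vehicle, and 1 and 0 over both treatments for TRα1 and TRβ1 minus control. Using only the arrays compared gave 0, 0, 1 and 1 for the same contrasts. Array weights gave 0 for TRα1 minus control on vehicle and 2 for TRβ1 minus TRα1, where only features above the median level, only the arrays compared and a trended variance each gave 1. For TRα1 minus control over both treatments, features above the median level, array weights and a trended variance each gave 3, with IGFBP1 added. Each of these counts differs because an adjusted p crossed 0.05, and the cause was not tested. Leaving out 1 array or number gave 0 to 1 members with the block for T3 in the TRβ1 pool, the mean T3 response, TRα1 minus control on vehicle, and TRβ1 minus control and TRβ1 minus TRα1 over both treatments. For TRα1 minus control it gave 0 to 1 without and 1 to 2 with the block. Only values that were called or lay farther from 0 than their SE were screened for a change of sign. One that changed was IGF1 after T3 in the control pool (-0.27 to 0.029 without 1 number, in both fits). The others were IGF1R for TRα1 minus control on vehicle (-0.21 to 0.0082) and IRS2 for that contrast over both treatments (-0.32 to 0.0028). None of these was called. With 3 arrays per group and 1 pool per construct, the median SE of a difference between groups was 0.157 without and 0.107 with the block.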
